A study of Mus musculus with 7 samples.

Results

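Bone marrow stromal and endothelial genes were read in LSK libraries as a check for RNA of niche cells. The members are Cxcl12, Kitl, Lepr, Col1a1, Col1a2, Col3a1, Sparc, Bglap, Cdh5 and Kdr, found by symbol as 10 of the 48440 genes in the deposited table. The LSK gate (lineage-negative, Sca1+, cKit+) holds multipotent progenitors and hematopoietic stem cells (HSCs) of the bone marrow (BM). Recipients of strain C57BL/6 were given a lethal dose of 9.5 Gy and then BM of wild-type (WT) donors or of donors with a constitutive PROSER1 KO made with an endonuclease, and LSK cells were sorted on day 77 with no other treatment. There were 4 WT libraries and 3 libraries labelled PROSER1 KO (the KO-labelled libraries), with 33143619 to 45140743 read pairs on genes per library. Replicates are labelled biological, and neither the ages of the mice nor the number of recipients behind each library was found in the labels or the methods.

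HSCs reside in a niche of perivascular stromal cells and sinusoidal endothelium. Stromal cells that carry the leptin receptor secrete the chemokine CXCL12 and stem cell factor, whose receptors CXCR4 and KIT hold and maintain HSCs in the marrow. Osteoblasts and fibroblasts deposit collagen and matrix, and vascular endothelial cells join through VE-cadherin and respond to VEGF through its receptor. After BM transplantation, stroma and endothelium remain largely of recipient origin, while the LSK cells come from the donor.

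Values are normalized counts, which are the authors' read pairs per gene divided by 1 size factor per library. A count of 0 allows up to 3 read pairs, which is a normalized count of 2.54 to 3.48 depending on the library, and such limits cover counting error only. Proser1 (ENSMUSG00000049504), the targeted gene, had normalized counts of 2019.4, 2153, 2103 and 2077 in WT replicates 1 to 4 and of 2464, 2359 and 2338 in PROSER1 KO replicates 1 to 3. Its mRNA was not lower in any KO-labelled library than in WT (log2 fold change 0.19, SE 0.049, adjusted p = 0.204 with limma), so every direction given here rests on the labels.

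The niche genes were detected at trace levels. The 10 members together took 411 to 1674 read pairs per library, 0.000962% to 0.00410% of the read pairs on genes. To compare genes, normalized counts were converted to FPKM with the exon length of each gene and the mean library total. On this scale the members averaged between 0.0254 (Col3a1) and 1.31 (Sparc), against 82.4 for Kit and 107 for Ly6a, which encode cKit and Sca1 of the gate, and 22.7 for the pan-hematopoietic gene Ptprc. From the highest level down, the order was Sparc, Cdh5 (0.967), Kdr (0.600), Cxcl12 (0.392), Col1a2 (0.285), Bglap (0.175), Col1a1 (0.168), Lepr (0.0698), Kitl (0.0678) and Col3a1. Neighbors in this order overlapped in their library values and were not tested against each other.

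Of the 10 members, 8 had a mean of at least 10 and were tested with limma on log2(normalized count + 1), on which the added 1 draws log2 fold changes of low genes toward 0. With limma, 0 of the 8 were differentially expressed (Benjamini-Hochberg adjusted p-value under 0.05 and fold change above 1.5), against 0.258% of the 16251 tested genes (42 genes). Unadjusted p-values under 0.05 were reached by 0 members and by 9.73% of all tested genes. On recovered read pairs, edgeR called 0 of 8 members (0.246% of all genes) and DESeq2 called 0 of 10 (0.873%), again with 0 at an unadjusted p-value under 0.05. The groups did not overlap in 0 of the 8 tested members and in 10% of all tested genes. The lowest adjusted p-value of a member was 0.581 (Lepr, limma).

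**Figure D1:**
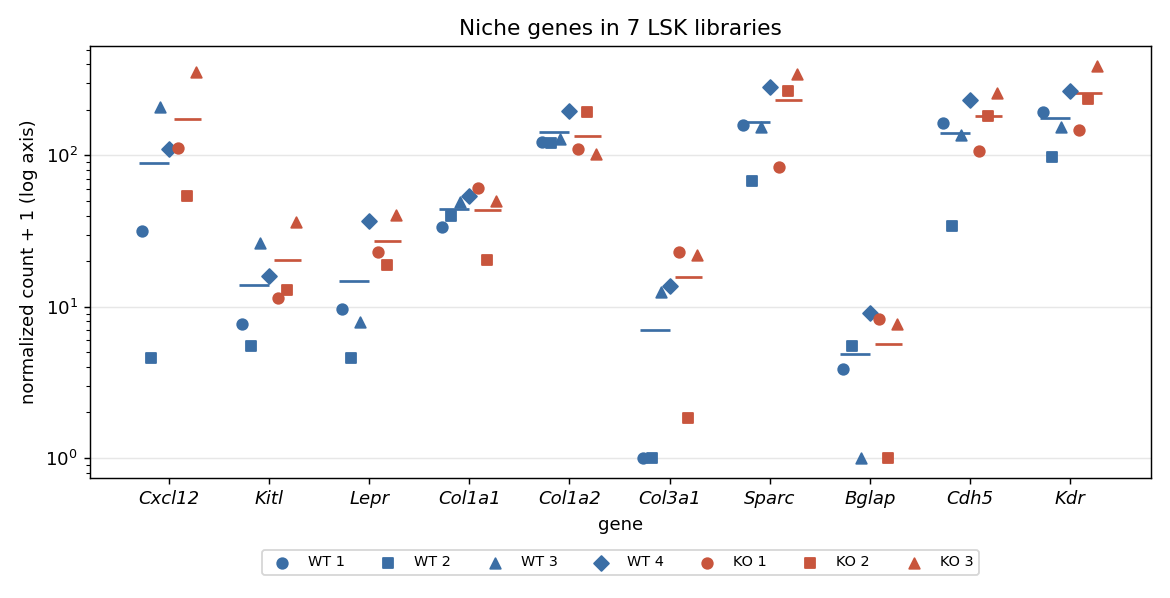
Normalized count plus 1 (log axis) of the 10 niche genes in 4 WT (blue) and 3 PROSER1 KO (red) LSK libraries; each symbol is 1 library and lines are group means plus 1. The groups overlap in all 10 genes, and for Cxcl12 the values run from 3.61 in WT replicate 2 to 357 in PROSER1 KO replicate 3.

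Values of these genes were widely spread over the 7 libraries of both groups. The SD of log2(normalized count + 1) over the 7 libraries had a median of 0.93 over the 8 tested members and of 0.14 over all tested genes. Among the tested members it was lowest for Col1a2 (0.38) and Col1a1 (0.53). Low genes also vary more by counting, and that share was not separated here. Cxcl12 was the most variable tested member. Within WT it had 4 read pairs in replicate 2 (exact 95% Poisson interval 1.09 to 10.2) and 182 in replicate 3 (157 to 210.4), its lowest and highest WT libraries, and these intervals cover counting error only.

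Cxcl12 (ENSMUSG00000061353; chromosome 6, 117168535 to 117181367, forward strand), the chemokine ligand of CXCR4, had normalized counts of 30.8, 3.61, 209 and 109 in WT replicates 1 to 4. In PROSER1 KO replicates 1 to 3 it had 110.6, 53.3 and 357. The highest library was 99.0-fold above the lowest, WT replicates 1 and 2 were below all others, and the groups overlapped. Group means were 88.1 ± 92.2 (SD, n = 4) in WT and 174 ± 161 (SD, n = 3) with the PROSER1 KO label. limma gave a log2 fold change of 1.59 (SE 1.17, 95% interval -1.04 to 4.23, adjusted p = 0.701), and the two-sided exact permutation test p = 0.371. The log2 fold change was 0.52 without WT replicate 2, 0.86 without PROSER1 KO replicate 3, 0.99 with edgeR and 0.98 with DESeq2. It was 2.36 without WT replicate 3, 2.22 without PROSER1 KO replicate 2 and 2.05 without WT replicate 4. With 4 libraries against 3, the smallest exact p is 0.0286. In bulk samples such as these, fewer cells of a type and less RNA per cell cannot be told apart.

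Kitl (ENSMUSG00000019966; chromosome 10, 100015630 to 100100416, forward strand) encodes stem cell factor, the ligand of KIT. Its normalized counts were 6.73, 4.51, 25.3 and 15.1 in WT and 10.4, 11.8 and 35.5 in the KO-labelled libraries. It was lowest in WT replicate 2 and highest in PROSER1 KO replicate 3, as Cxcl12 was, and the other PROSER1 KO libraries lay between the WT values. limma put its log2 fold change at 0.60 (SE 0.65, adjusted p = 0.812), which was 0.07 without PROSER1 KO replicate 3, 0.24 without WT replicate 2, 0.90 without PROSER1 KO replicate 1, 0.99 without WT replicate 3 and 0.34 at a pseudocount of 10.

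Lepr (ENSMUSG00000057722; chromosome 4, 101717404 to 101815352, forward strand), the leptin receptor that marks the perivascular stroma, had 8.65, 3.61, 6.90 and 35.9 normalized counts in WT and 21.9, 17.8 and 39.4 in the KO-labelled libraries. In WT, replicate 4 stood above the other 3, and it alone lay within the range of the KO-labelled libraries. By limma the log2 fold change was 1.28 (SE 0.68, 95% interval -0.24 to 2.80, adjusted p = 0.581; two-sided exact permutation test, p = 0.143). It was 0.74 at a pseudocount of 10, 0.87 without WT replicate 2 and 1.88 without WT replicate 4 (adjusted p = 0.301, limma). Lep, the ligand, was at 0 in all 7 libraries.

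The promoters of the niche factors Cxcl12 and Kitl and of the endothelial receptor Kdr are shown, chosen after their values were seen, because all had their lowest value in WT replicate 2 and their highest in PROSER1 KO replicate 3, as 6 of the 8 tested members did. RefSeq promoter windows (GRCm38.p6, 250 bases before to 50 after the start) were matched by symbol for 8 of the 10 members, all but Cdh5 and Col1a1. The windows are chr6:117168285-117168584 (plus strand) for Cxcl12, chr10:100015571-100015870 (plus strand) for Kitl and chr5:75978406-75978705 (minus strand) for Kdr. Capitals mark matches on either strand, with overlapping matches counted separately. The letters GGGCGG stand for the GC box. The letters TATAAA stand for the TATA box. The letters CCGGAA stand for the ETS core.
Cxcl12: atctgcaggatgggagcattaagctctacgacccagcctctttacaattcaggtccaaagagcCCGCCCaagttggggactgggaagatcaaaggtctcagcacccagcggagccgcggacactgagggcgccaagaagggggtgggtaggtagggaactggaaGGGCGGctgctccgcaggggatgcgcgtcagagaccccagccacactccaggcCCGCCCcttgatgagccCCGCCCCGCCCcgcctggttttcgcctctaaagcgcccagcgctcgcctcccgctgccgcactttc
Kitl: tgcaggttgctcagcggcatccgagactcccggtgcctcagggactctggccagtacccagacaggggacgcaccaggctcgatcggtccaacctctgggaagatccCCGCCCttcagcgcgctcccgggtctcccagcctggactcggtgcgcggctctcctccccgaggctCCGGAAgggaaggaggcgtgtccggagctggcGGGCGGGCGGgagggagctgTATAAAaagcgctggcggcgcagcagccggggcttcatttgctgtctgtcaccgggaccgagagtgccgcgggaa
Kdr: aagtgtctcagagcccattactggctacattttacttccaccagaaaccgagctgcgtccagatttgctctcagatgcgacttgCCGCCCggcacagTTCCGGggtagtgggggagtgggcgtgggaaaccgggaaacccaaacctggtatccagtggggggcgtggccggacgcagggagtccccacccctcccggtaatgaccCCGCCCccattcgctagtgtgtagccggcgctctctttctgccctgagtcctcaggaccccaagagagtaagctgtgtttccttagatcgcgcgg
The Cxcl12 window held 5 GC box matches, the Kitl window 3 and the Kdr window 2. Of the other members with this pair of lowest and highest libraries, Sparc had 0 matches to any of the 3 motifs, and the 2 windows of Lepr held 0 and 1 GC box matches. The TATA box letters were found in the Kitl window and not in those of Cxcl12 and Kdr, and the ETS core letters once in each of the Kitl and Kdr windows. Over all 32851 RefSeq promoter windows, 35.7% held the GC box letters, 13.6% the TATA box letters and 14.9% the ETS core letters, so a match is a description of the window and not a site.

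Among the fibrillar collagens, neither type I chain was lowest in WT replicate 2. Col1a1 (ENSMUSG00000001506; chromosome 11, 94936224 to 94953042, forward strand), the alpha 1 chain of type I collagen, had 32.7, 38.8, 48.3 and 53.3 normalized counts in WT and 59.5, 19.5 and 49.0 in the KO-labelled libraries. Its highest and its lowest value both stood among the KO-labelled libraries. limma put its log2 fold change at -0.14 (SE 0.39, adjusted p = 0.945), and it was 0.34 without PROSER1 KO replicate 2. With any other library left out it lay between -0.44 (PROSER1 KO replicate 1) and -0.03 (WT replicate 4).

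Col1a2 (ENSMUSG00000029661; chromosome 6, 4504814 to 4541544, forward strand), the alpha 2 chain of the same collagen, had 121, 119, 128 and 196 normalized counts in WT and 108, 191 and 102 in the KO-labelled libraries. It varied least of the 8 tested members, by 1.93-fold from the lowest to the highest library, and 1 library of each group stood above the rest. By limma the log2 fold change was -0.10 (SE 0.27, 95% interval -0.70 to 0.50, adjusted p = 0.939). It was 0.07 without WT replicate 4, 0.02 without PROSER1 KO replicate 1 and 0.06 without PROSER1 KO replicate 3. Without PROSER1 KO replicate 2 it was -0.39. Both chains form the same protein, yet the ratio of Col1a1 to Col1a2 ran from 0.102 in PROSER1 KO replicate 2 to 0.548 in PROSER1 KO replicate 1.

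Col3a1 (ENSMUSG00000026043; chromosome 1, 45311538 to 45349706, forward strand), which encodes type III collagen, was under the filter of the fit. It was at 0 in WT replicates 1 and 2, at 11.5 and 12.8 in WT replicates 3 and 4, and at 21.9, 0.846 and 21.1 in the KO-labelled libraries. Of these, 0.846 is 1 read pair, and WT replicates 1 and 2 and PROSER1 KO replicate 2 were its 3 lowest libraries, as they were for Cxcl12. The groups overlapped (p = 0.400 in the two-sided exact permutation test). The miRNA gene Gm47302 shares 141 of its exon bases on the same strand.

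Sparc (ENSMUSG00000018593; chromosome 11, 55394500 to 55423183, reverse strand) encodes osteonectin, a collagen-binding glycoprotein made by osteoblasts, fibroblasts and endothelial cells. It had 159, 66.7, 153 and 283 normalized counts in WT and 82.4, 266 and 347 in the KO-labelled libraries. WT replicate 2 and PROSER1 KO replicate 1 were low, and each group held high and low libraries. limma put its log2 fold change at 0.42 (SE 0.55, adjusted p = 0.857), which was 0.02 without PROSER1 KO replicate 3, 0.05 without WT replicate 2, 0.21 without PROSER1 KO replicate 2, 0.74 without WT replicate 4 and 1.05 without PROSER1 KO replicate 1.

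Bglap (ENSMUSG00000074483; chromosome 3, 88383501 to 88384464, reverse strand), the osteocalcin gene of mature osteoblasts, was the other member under the filter. It had 2.88, 4.51, 0 and 8.11 normalized counts in WT and 7.30, 0 and 6.72 in the KO-labelled libraries, at most 7 read pairs in a library (two-sided exact permutation test, p = 1). Of its 569 transcript stretches of 50 bases, 56.6% also occur in Bglap2 or Bglap3, so that its reads are uncertain. Bglap2 was at 0 in all 7 libraries.

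The endothelial members Cdh5 and Kdr had the same order of the 7 libraries. Cdh5 (ENSMUSG00000031871; chromosome 8, 104101625 to 104144511, forward strand), which encodes VE-cadherin of endothelial junctions, had 163, 33.4, 136 and 231 normalized counts in WT and 106, 182 and 258 in the KO-labelled libraries. Kdr (ENSMUSG00000062960; chromosome 5, 75932827 to 75978458, reverse strand), the VEGF receptor of endothelium, had 191, 96.5, 154 and 265 in WT and 146, 234 and 392 in the KO-labelled libraries. Both were lowest in WT replicate 2 and highest in PROSER1 KO replicate 3, with WT replicate 4 next to the highest, and the groups overlapped. Group means of Kdr were 177 ± 70.8 (SD, n = 4) in WT and 257 ± 125 (SD, n = 3) in the KO-labelled libraries, a log2 fold change of 0.51 (SE 0.38, adjusted p = 0.704, limma; two-sided exact permutation test, p = 0.371). For Kdr it was 0.15 without PROSER1 KO replicate 3, 0.26 without WT replicate 2 and 0.86 without PROSER1 KO replicate 1. The log2 fold change of Cdh5 was 0.58 (SE 0.59, adjusted p = 0.797, limma), and it was -0.0077 without WT replicate 2, 0.28 without PROSER1 KO replicate 3, 0.92 without PROSER1 KO replicate 1, 0.91 without WT replicate 4 and 0.38 with edgeR and with DESeq2.

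**Figure D2:**
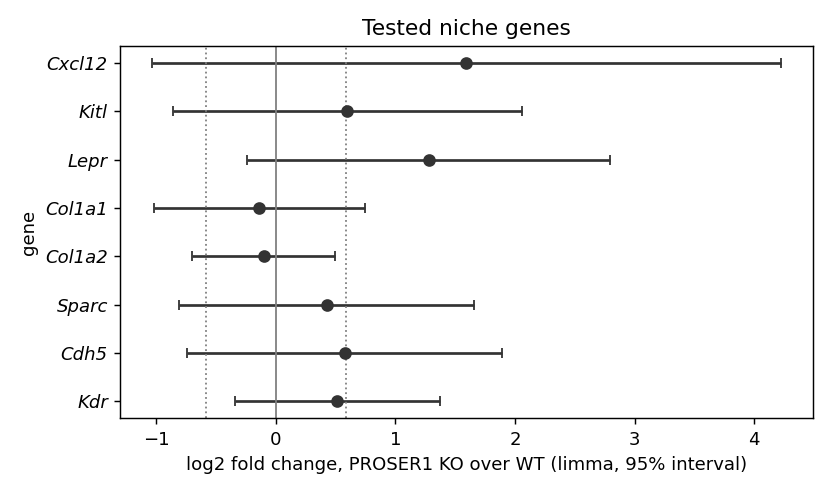
Log2 fold change (PROSER1 KO over WT) of the 8 tested niche genes, with 95% intervals from limma; dotted lines mark a fold change of 1.5 in either direction. Every interval includes 0, and the interval of Cxcl12 is the widest, from -1.04 to 4.23.

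Ratios between members within a library differed in their stability. Among the 28 pairs of tested members, Sparc to Kdr was the most even, with ratios of normalized counts from 0.564 to 1.14, and Cdh5 to Kdr ran from 0.346 to 0.881. In WT replicate 2, which gave the lowest Cdh5 to Kdr ratio, Cdh5 had 37 read pairs. Cxcl12 stood in the 7 most uneven pairs. Its ratio to Kdr ran from 0.0374 in WT replicate 2 to 1.36 in WT replicate 3, and its ratio to Col1a2 from 0.0303 in WT replicate 2 to 3.51 in PROSER1 KO replicate 3. Although Cxcl12 and Lepr are known from the same stromal cells, their ratio was 30.3 in WT replicate 3 and between 1.00 and 9.07 in the other libraries. Lepr had 6 read pairs in WT replicate 3, and each of the 2 genes had 4 in WT replicate 2, so these ratios are imprecise. Cxcl12 therefore did not keep 1 fixed proportion to Kdr or to Col1a2 across libraries. A fixed proportion among all 8 tested members was not tested.

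**Figure D3:**
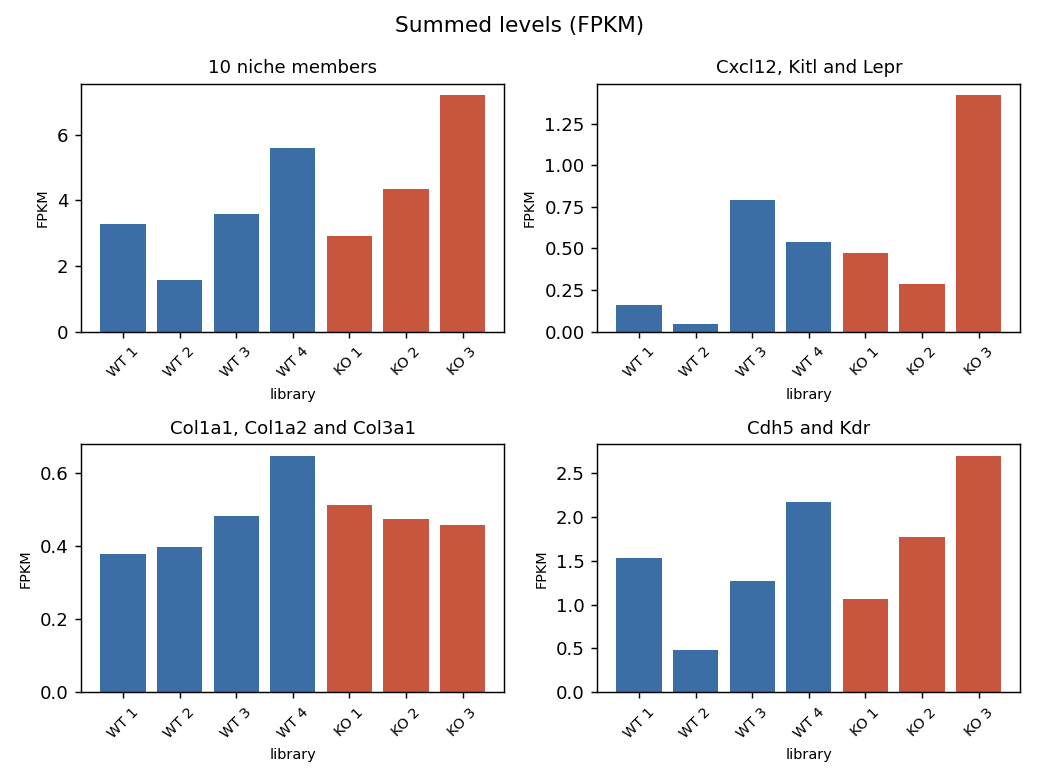
Summed levels (FPKM, bars from 0) of the 10 members and of their stromal factor, collagen and endothelial subsets in each library, WT in blue and PROSER1 KO in red. The stromal factors range from 0.0440 to 1.42 and the collagens from 0.378 to 0.646.

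Summed FPKM of the 10 members was 3.27, 1.56, 3.58 and 5.60 in WT and 2.91, 4.33 and 7.19 with the PROSER1 KO label. This equals 1.82% to 9.01% of the level of Kit in the same library. The lowest and the highest library differed by 4.62-fold, and the WT range overlapped that of the KO-labelled libraries. The mean was 3.50 ± 1.66 (SD, n = 4) for WT against 4.81 ± 2.18 (SD, n = 3), which is 0.46 as a log2 ratio. It was 0.05 without PROSER1 KO replicate 3, 0.21 without WT replicate 2, 0.72 without PROSER1 KO replicate 1 and 0.78 without WT replicate 4, so its size rested on single libraries.

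Other genes were read from 11 lists that exclude the members, of niche cells, of partners of the members, of the LSK gate and of other BM cells. Of these 134 genes, 102 were tested, and limma called 2, both higher in the KO-labelled libraries, with 12 at an unadjusted p-value under 0.05. Over all tested genes the limma shares were 0.258% called and 9.73% at an unadjusted p-value under 0.05. The called shares were 0.246% with edgeR and 0.873% with DESeq2, and unadjusted p-values under 0.05 numbered 1603 of 16251 with edgeR and 1841 of 18903 with DESeq2. The 2 list genes that limma called were Postn and Mmrn1. Of the list genes, edgeR called 2 and DESeq2 called 3 of 115 tested, among them Lpl. The 12 list genes at an unadjusted p-value under 0.05 with limma were Postn, Lpl, Pdgfrb, Mmrn1, Vegfb and Nrgn, and, named after their values were seen, Nes, Fn1, Sox18, Emcn, Mecom and Itga2b. The median log2 fold change of the 10 members was 0.55, both among the 8 tested and with the 2 untested included, against 0.00 over all tested genes. Among the 8 tested it was 0.11 without PROSER1 KO replicate 3, 0.14 without WT replicate 2 and 0.91 without PROSER1 KO replicate 1.

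A further list of 16 mostly endothelial genes, called endothelial restricted, also holds Robo4, which HSCs are known to express. Of the 16, 14 were tested with limma and edgeR and 16 with DESeq2, and each called 0, with 1 at an unadjusted p-value under 0.05 by each tool. The median deviation of these genes from their own 7-library means was -0.87 on the log2 scale in WT replicate 2, 0.75 in WT replicate 4, -0.61 in PROSER1 KO replicate 1 and 0.94 in PROSER1 KO replicate 3. Of the 14, 8 were lowest in WT replicate 2 and 9 highest in PROSER1 KO replicate 3, against 9.64% and 14.3% of all tested genes. Their median log2 fold change was 0.41. The highest was that of Gpihbp1 (0.96, adjusted p = 0.743, limma), which anchors lipoprotein lipase on capillaries, and the lowest that of the sinusoidal scavenger receptor Stab2 (-0.29, adjusted p = 0.874, limma). Robo4, Plvap, Stab2, Sox18 and Fabp4, 5 of its 16 genes, averaged at least 1 FPKM, as the member Sparc did. Plvap and Fabp4, named after their values were seen, had the same order of the 7 libraries as Cdh5 and Kdr. Robo4, its most abundant gene (6.62 FPKM), stayed between 1239 and 1500 normalized counts in all libraries, as steady (log2 SD 0.11) as the genes shared with HSCs. The summed level of the list was 13.3 in WT replicate 2, 24.9 in PROSER1 KO replicate 3 and between these in the other libraries. Robo4 made up 28.4% to 49.8% of it, and without Robo4, a step chosen after values were seen, the sum ran from 6.70 to 17.8 in the same libraries.

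Endothelial genes that HSCs share were higher and steadier. All 14 were tested, with a median log2 fold change of 0.08 and 1 call and 2 genes at an unadjusted p-value under 0.05 by each of limma, edgeR and DESeq2, 13 averaged at least 1 FPKM, and their median SD over the libraries was 0.11 on the log2 scale, against 0.70 for the restricted list. Of the 14, 0 were lowest in WT replicate 2, against 9.64% of all tested genes. Cd34, the most abundant (113 FPKM), had log2 fold change -0.01, and that of Pecam1, the lowest of the list, was -0.04. Vwf, which marks platelet-biased HSCs as well as endothelium, had the highest at 0.66 (adjusted p = 0.528, limma). Mmrn1, a multimerin of platelets and endothelium, had 2840, 3188, 2445 and 2761 normalized counts in WT and 4137, 4529 and 4043 in the KO-labelled libraries. The groups did not overlap, and the log2 fold change was 0.60 (SE 0.084, adjusted p = 0.0230, limma). Mmrn1 was higher in 3 of 3 libraries, and its adjusted p ran from 5.4e-10 (DESeq2) to 0.157 over 17 alternatives, of which 7 lost the call (eBayes without trend, and leaving out WT replicate 1, 3 or 4 or any KO-labelled library).

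**Figure D4:**
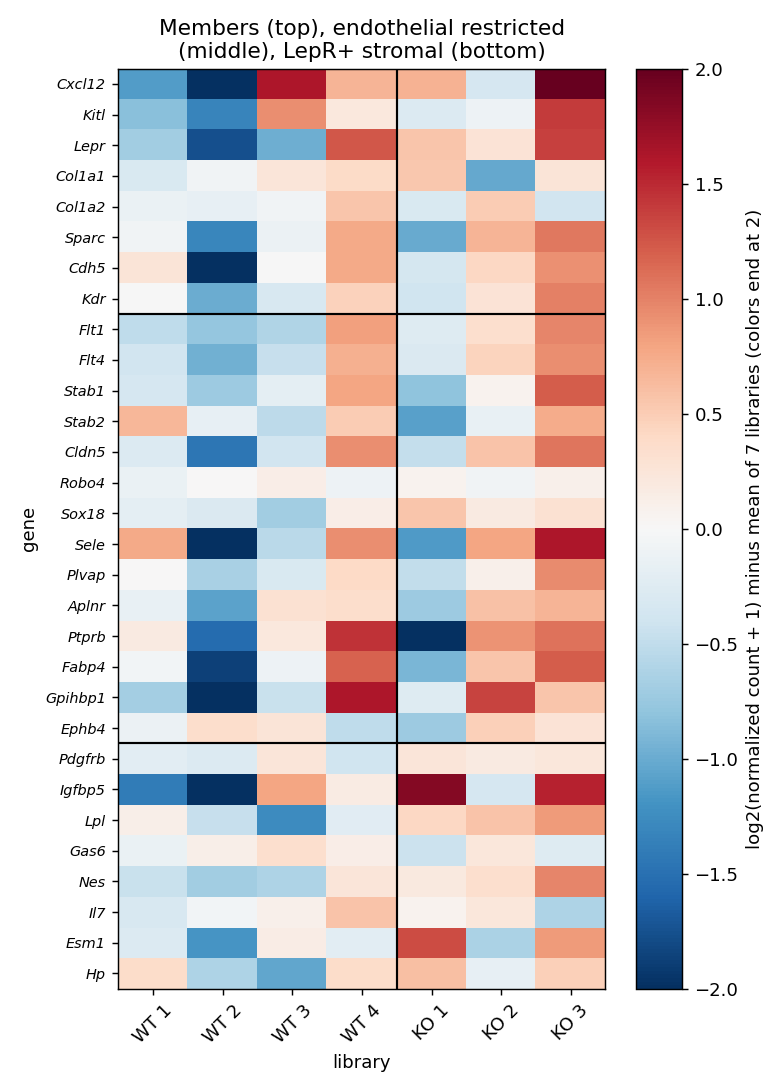
Deviation of log2(normalized count + 1) from the mean of the 7 libraries for tested members (top), genes of the endothelial restricted list (middle) and genes of LepR+ stroma (bottom), red above and blue below the mean, with colors ending at 2. Most endothelial genes are blue in WT replicate 2 and red in WT replicate 4 and PROSER1 KO replicate 3, while Robo4 and Pdgfrb are pale throughout.

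Of 15 genes of LepR+ stromal cells, 8 were tested with limma and edgeR and 13 with DESeq2, and 3 had an unadjusted p-value under 0.05 by each tool. Calls numbered 0 with limma and edgeR and 1 with DESeq2, and the median log2 fold change of the 8 tested with limma was 0.71. Pdgfrb, a stromal receptor, was the most abundant (11.6 FPKM) at 1855 to 2901 normalized counts, a level in all libraries far above that of any member. It was also steadier (log2 SD 0.28), and the cells it came from were not tested. Only 3 of the 15 genes averaged at least 1 FPKM. Adipoq, Foxc1, Ebf3, Pdgfra, Grem1 and Prrx1, named after their values were seen, averaged between 0.00624 (Prrx1) and 0.0740 FPKM (Adipoq). Igfbp5, an insulin-like growth factor binding protein of stroma, had the highest log2 fold change (1.77, SE 0.82, adjusted p = 0.528, limma), with values from 3.61 in WT replicate 2 to 98.1 in PROSER1 KO replicate 1. Gas6, the lowest, was at -0.27. Lpl, lipoprotein lipase, had 105.8, 71.2, 40.2 and 83.5 normalized counts in WT and 130.4, 146 and 177 in the KO-labelled libraries. The groups did not overlap, and its log2 fold change was 1.07 with limma (adjusted p = 0.279) and 1.00 with DESeq2 (adjusted p = 0.0337, the lowest of a range up to 0.558 over 17 alternatives). The summed level of the list was 16.0 to 21.4 in the 7 libraries, of which Pdgfrb and Gas6 made up 79.3% to 90.2%. The other 13 genes together, a sum chosen after values were seen, had 2.74, 1.78, 2.07 and 3.32 FPKM in WT. In the KO-labelled libraries this sum was 4.23, 2.69 and 4.43. Hp, named after its values were seen, held 0.661 FPKM of it in WT replicate 3, its lowest library. Its highest was PROSER1 KO replicate 1, at 2.12 FPKM.

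Of 12 genes of the osteoblast and osteocyte lineage, 4 were tested with limma and edgeR and 5 with DESeq2, and each tool gave 0 calls and 0 genes at an unadjusted p-value under 0.05. Of the 12, 6 had at most 3 read pairs in every library, and Bglap2 and Sost, the sclerostin gene of osteocytes, were at 0 throughout. Col11a2 was the most abundant (2.35 FPKM, 527 to 753 normalized counts), Alpl, named after its values were seen, had 169 to 366, and log2 fold changes ran from -0.27 (Spp1) to 0.20 (Phex). Of 8 mural genes, 2 were tested with limma and edgeR and 4 with DESeq2, with 0 called by any tool (0 at an unadjusted p-value under 0.05 with limma and edgeR, 1 with DESeq2), and Acta2 and Cspg4, defining genes of smooth muscle and pericytes, were at 0 in all 7 libraries. Notch3, the most abundant mural gene (0.375 FPKM), had 297 normalized counts in PROSER1 KO replicate 1 and 65.2 to 116 elsewhere, with log2 fold change 0.60, and that of Mcam was 0.27. Their median log2 fold changes were -0.13 (osteolineage) and 0.44 (mural), and their summed levels ranged from 4.11 to 5.71 and from 0.328 to 1.21.

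Of 15 matrix and fibroblast genes, 9 were tested with limma and edgeR and 11 with DESeq2. Unadjusted p-values under 0.05 numbered 2 with limma, 4 with edgeR and 4 with DESeq2, and 1 gene was called by each of limma, edgeR and DESeq2. Postn encodes periostin, a matrix protein that binds integrins. It had 92.3, 86.5, 70.1 and 64.9 normalized counts in WT and 267, 245 and 328 in the KO-labelled libraries. Each KO-labelled library was above every WT library, and the log2 fold change was 1.83 (SE 0.19, adjusted p = 0.00464, limma). Its adjusted p stayed at or below 0.0453 over 17 alternatives. Like 6 tested members it was highest in PROSER1 KO replicate 3, while its lowest library was WT replicate 4. The median log2 fold change of the list was 0.47, S100a6 was its most abundant gene (10.3 FPKM), and Thy1 had its lowest log2 fold change (-0.09). Its summed level was 22.2 to 28.6, most of it from S100a6, Thy1 (8.55 FPKM) and Bgn (4.28 FPKM). These were the 3 of 15 genes that averaged at least 1 FPKM. Dcn, Lum, Col6a1 and Mgp averaged between 0.0107 (Lum) and 0.0667 FPKM (Mgp). Bgn and these 4 genes were named after their values were seen.

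The receptors and ligands of the members were measured in the same libraries. Of 15 partners, 14 were tested, 0 were called by limma, edgeR and DESeq2, and 1, 1 and 2 had unadjusted p-values under 0.05, with a median log2 fold change of -0.04. Cxcr4, the receptor of CXCL12, had 3232 to 4314 normalized counts (52.6 FPKM, log2 fold change 0.09), and the scavenger receptor Ackr3 had 19.5 to 168. Kit, the receptor of stem cell factor, had 25535 to 32357 normalized counts, with a log2 fold change of -0.07. Of the KDR ligand genes, Vegfa ranged over 619 to 1080 normalized counts, with log2 fold change -0.32 (adjusted p = 0.548, limma). Vegfb, a ligand of the related receptor FLT1, had 1193, 1141, 1203 and 1119 normalized counts in WT and 979.5, 998 and 1022 in the KO-labelled libraries. The groups did not overlap, but its log2 fold change of -0.22 did not pass the test (adjusted p = 0.236, limma). The VEGF co-receptor Nrp1 had 333 to 497 normalized counts.

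Collagen is bound by integrins and discoidin domain receptors. Itgb1, the shared beta chain, averaged 66.5 FPKM, and the alpha chains Itga1 (0.0817 FPKM) and Itga2 (0.786 FPKM) were lower. Ddr1 had 6.90 to 32.5 and Ddr2 0 to 47.1 normalized counts. Ctnnb1, the catenin that binds cadherins such as VE-cadherin, was the most abundant partner (89.1 FPKM) with a log2 fold change of 0.00. The summed level of the partners was 303 to 334, and that of the 10 gate genes, led by Ly6a, was 475 to 528. Of the gate genes 0 were called by limma, edgeR or DESeq2 (1, 1 and 2 at an unadjusted p-value under 0.05).

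Markers of other BM cells were read beside the members, and their median log2 fold changes were 0.17 (macrophage), -0.27 (plasma cell) and 0.23 (megakaryocyte). Of 10 macrophage genes, 10 were tested and 0 were called by limma, edgeR or DESeq2, with 0 at an unadjusted p-value under 0.05 by each. The summed macrophage level was 9.25, 8.78, 11.0 and 11.0 in WT and 8.83, 11.9 and 11.8 in the KO-labelled libraries, with Hmox1 the most abundant at 3.26. Vcam1, which stroma and endothelium also express, and Mrc1, both named after their values were seen, were the 2 of these 10 genes that were lowest in WT replicate 2, at 64.9 and 116 normalized counts. In WT replicate 4, 3 of the 10 were lowest (C1qa, C1qb and Spic) and 3 were highest (Cd5l, Mrc1 and Hmox1). C1qa, C1qb, Spic and Cd5l were also named after their values were seen. Of 10 plasma cell genes, 0 were called by any tool (0 at an unadjusted p-value under 0.05 with limma and DESeq2, 1 with edgeR). They were abundant, led by Igkc at 27578 FPKM, with a summed level of 52730, 45240, 31349 and 74058 in WT and 42741, 31396 and 48004 in the KO-labelled libraries. All immunoglobulin genes with Jchain took 5.55% (WT replicate 3) to 13.0% (WT replicate 4) of the read pairs on genes. All 10 plasma cell genes were highest in WT replicate 4, where the endothelial members were second highest, but they were lowest in WT replicate 3 or PROSER1 KO replicate 2, not in WT replicate 2. Of 10 megakaryocyte genes, 8 were tested with limma and edgeR and 9 with DESeq2, and 0 were called by limma, edgeR or DESeq2 (2, 2 and 4 at an unadjusted p-value under 0.05). Their summed level, led by Nrgn at 58.3 FPKM, was 102, 113, 110 and 104 in WT and 140, 128 and 114 in the KO-labelled libraries. The groups came close at 113 in WT replicate 2 and 114 in PROSER1 KO replicate 3, and this sum was not tested. No gene of these 3 lists was at 0 in all libraries, and their part in the niche gene levels was not tested.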

How the data were processed

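RNA-seq of sorted LSK cells was taken from 4 WT libraries and 3 libraries labelled PROSER1 KO, grouped by their labels. Per the submitters' processing notes and the study's methods, reads were trimmed with Trimmomatic, mapped to mm10 with STAR and counted as read pairs with featureCounts. The authors deposited a normalized signal per gene, which is the count divided by a DESeq2 size factor. The kit was directional, and the strand setting of the counting is not given in the sources used here. The table's header names GENCODE release M10 and the methods release M25. Exon lengths and positions come from release M21 (GRCm38), in which 99.2% of gene IDs were found. All values were whole multiples of 1 step per library (100% within 0.01 read pairs), which recovered 33143619 to 45140743 read pairs.

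The comparison of KO-labelled with WT libraries used limma 3.58.1 (R 4.3.3, eBayes with trend) on log2(normalized count + 1) of the 16251 genes whose mean reached 10, and on recovered read pairs with edgeR 4.0.16 (quasi-likelihood) and DESeq2 1.42.0. Exact permutation tests used all 35 placements of the labels. The fits were tested on simulated data. Tables and intervals used pandas 2.3.3 and scipy 1.17.1.

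The members and the 11 lists (LepR+ stromal, osteolineage, matrix and fibroblast, pericyte and smooth muscle, endothelial restricted, endothelial shared with HSC, partners, LSK gate, macrophage, plasma cell, megakaryocyte) were chosen with earlier results of these data known. Named are the members, Proser1, their partners, gate genes, and from each list the most abundant gene, called genes, genes at 0 in all libraries and, for niche lists, the highest and lowest log2 fold change among tested genes. Alternatives were other pseudocounts, filters, variance models, TMM factors, edgeR, DESeq2, no minimum fold change, a replicate block and each library left out. For the summed level they were no length scaling, TMM factors, omission of the most abundant member and each library left out.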

Additional observations from a re-analysis of the deposited data

Results flagged for a closer look

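The highest WT library stood apart from the other 3 for Lepr and for Col1a2, in both cases WT replicate 4. Lepr had 35.9 normalized counts there and at most 8.65 in the other WT libraries. Col1a2 had 196 normalized counts there and at most 128 in the others. These were 2 of 14 WT groups of values examined, and chance sets apart about 1 in 20. The 3 libraries labelled PROSER1 KO were not examined in this way.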

How the results depend on the processing

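No member was called by limma, edgeR or DESeq2 in any of 18 alternatives, and the lowest adjusted p-value of a member was 0.299 (Cxcl12, block). Counts at an unadjusted p-value under 0.05 were 0 with limma as reported, edgeR and DESeq2, and 1 without WT replicate 4 and without PROSER1 KO replicate 1. The number of all differentially expressed genes was 42, and it was 17 without the trend, 80 with robust variance estimates, 165 with DESeq2 and 23 to 42 with each library left out. The other list genes called were 2, but 1 without the trend and 1 to 2 with each library left out.

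Signs of fold changes held for 6 of 10 members, and 10 of 168 alternative values turned. Other filters and variance models leave a limma fold change as it is, so those values could not turn. Sizes moved with single libraries also where the sign held. With each library left out, Kitl ran from 0.07 to 0.99, Sparc from 0.02 to 1.05 and Cxcl12 from 0.52 to 2.36. Kdr ran from 0.15 to 0.86 and Lepr from 0.87 to 1.88. Bglap (0.10) was -0.096 at a pseudocount of 0.1, and with each library left out it ran from -0.54 to 1.10. Ranges with each library left out were -0.44 to 0.34 for Col1a1, -0.39 to 0.066 for Col1a2 and -0.0077 to 0.92 for Cdh5. The median over the 8 tested members (0.55) was 0.11 to 0.91 with each library left out. The log2 ratio of summed levels was 0.45 to 0.46 by scaling and without Sparc, and 0.05 to 0.78 with each library left out. The cause of these shifts was not tested.

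With the replicate number as a block, 35 genes, 0 members and 2 other list genes were called, 2 members had an unadjusted p-value under 0.05, and Col1a2 was at 0.066. WT replicate 4 has no partner and drops out of this contrast, so each member's fold change equals that without WT replicate 4. Deviations of same-numbered libraries were weakly correlated (0.02, 0.06 and -0.11). PROSER1 KO replicate 1 matched WT replicate 1 best, and PROSER1 KO replicates 2 and 3 matched WT replicates 3 and 4 best (0.14 each). No clear pairing by number was seen in these weak correlations, and whether the numbers mark a shared batch was not tested. Depth limits Col3a1 and Bglap most, at no more than 22 and 7 read pairs.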
